A study of Rattus norvegicus with 8 samples.

Results

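Sarcomeric myosin heavy chains were examined through every gene spot of the arrays that carried the name Myh1, Myh2, Myh3, Myh4, Myh6, Myh7 or Myh8. These 7 genes, of 26276 gene names on the arrays, had 9 probes with 1 spot each, since Myh2 and Myh3 each had 2 probes. The samples were RNA of castrated adult male Wistar rats, 120 ± 12 days old, on 8 Agilent 2-colour arrays. On each array, RNA of castrated rats given 1 subcutaneous dose of testosterone propionate, an androgen ester, was hybridised against RNA of castrated control rats. The dose was 4 mg/kg in 1 mL/kg of corn oil, and RNA was taken 24 h or 8 h later, with 4 arrays for each time. The labels call the material cells (C3d), whereas the protocols describe whole rats. Treated and control animals alike were castrated; no label names the muscle, says whether controls received oil, whether a sample was 1 animal or a pool, or whether arrays share an extract. The p-values therefore measure only the spread between these arrays, which may be technical. Dyes were swapped within each time: testosterone RNA was labelled with Cy3 on arrays 1 and 2 of 8 h and 3 and 4 of 24 h, and with Cy5 on the other 4.

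A muscle fibre contracts when myosin heads of the thick filament pull on actin, and the heavy chain isoform sets much of a fibre's shortening speed. Adult fast fibres of rats use Myh2 (type IIa), Myh1 (type IIx) and Myh4 (type IIb), slow fibres use Myh7, and Myh6 is the alpha chain of the heart. Myh3 (embryonic) and Myh8 (perinatal) are the chains of developing muscle and reappear in regenerating fibres. In the rat, Myh3, Myh2, Myh1, Myh4 and Myh8 lie next to each other on chromosome 10, and Myh6 and Myh7 lie side by side on chromosome 15.

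The probes that carry the results are shown because these chains are similar in sequence, so that which bases each spot reads decides what it can tell apart. In the Myh8 and Myh6 probes the capitals mark bases that match when the pair is aligned, and the other probes have no capitals because no probe of another member matched them at 60% or more of the aligned bases.
Myh1 probe: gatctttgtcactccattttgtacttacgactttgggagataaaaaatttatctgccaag
Myh4 probe: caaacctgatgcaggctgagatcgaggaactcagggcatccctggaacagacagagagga
Myh3 probe A_44_P271442: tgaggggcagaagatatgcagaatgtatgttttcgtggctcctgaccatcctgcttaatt
Myh8 probe: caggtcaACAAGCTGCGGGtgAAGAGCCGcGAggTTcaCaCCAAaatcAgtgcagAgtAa
Myh6 probe: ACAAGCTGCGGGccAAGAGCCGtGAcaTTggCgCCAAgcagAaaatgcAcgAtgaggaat
On the rn4 build used by the array files, the Myh1 probe lies at chr10:53917888-53917947, the Myh4 probe at chr10:53951729-53951788 and the Myh8 probe at chr10:54002239-54002298, all on the plus strand. The Myh3 probe lies at chr10:53800570-53800629 on the plus strand, and the Myh6 probe at chr15:33044576-33044983 on the minus strand, where its 60 bases span 408 bases of the chromosome. Exon and untranslated region boundaries were not used here. The Myh6 and Myh8 probes matched at 32 of 53 aligned bases, the highest number among the 36 pairs of member probes. The Myh1 probe matched no other member probe at more than 22 bases, and its closest match among the other 30366 probes of the array held 33 of 60 bases. Hybridisation to transcripts of other members was not tested, since no rat transcripts were aligned here.

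Only part of the family gave a usable signal. A probe counted as measured when the scanner software called it well above background in 3 or more of the 4 samples of any group (testosterone or control, at 24 h or 8 h). Measured in this sense were 4 of the 9 probes, which were kept for testing: those of Myh1, Myh4 and Myh8 and one of Myh3. Myh1, Myh4 and Myh8 were well above background in 16 of 16 samples. The kept Myh3 probe was well above background in 3 of 4 samples of every group, that is in 12 of 16, and its mean signal was between 1.12 and 3.32 times its local background.

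The 5 probes that were not kept stood close to the local background in nearly every sample. The Myh2 probes were well above background in 2 of 16 samples (A_64_P105383, one treated and one control sample of 8 h) and in 0 of 16 (A_64_P109919). The Myh7 probe was not well above background in any sample, with signals between 1.07 and 1.5 times background. The Myh6 probe was well above background in 2 of 16 samples, both of them treated, at 1.19 to 1.85 times background. The second Myh3 probe, A_64_P031995, was well above background in 1 treated sample of 24 h. No fold change is given for these 5 probes. Neither of the 2 probes of Myh2 showed a usable signal, so their agreement on that gene could not be judged. The 2 probes of Myh3 differed in detection: 12 of 16 samples for the kept probe against 1 of 16 for the second.

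**Figure D1:**
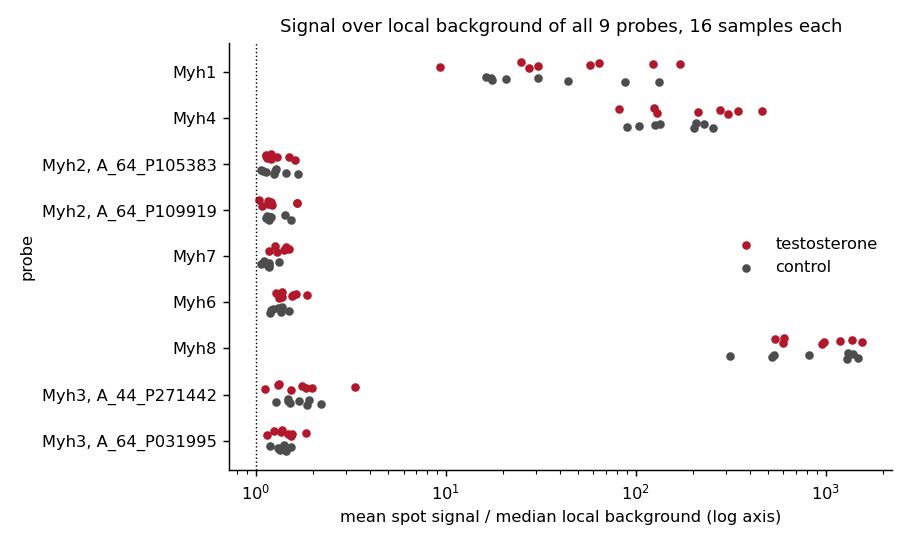
Mean spot signal over median local background (x axis, logarithmic) for the 9 probes in 16 samples, with testosterone samples in red above control samples in grey; the dotted line is a ratio of 1. Myh1, Myh4 and Myh8 lie at ratios of 9.37 or more in every sample, whereas the highest value of any other probe is 3.32, for 1 Myh3 sample; probes differ in sensitivity, so their heights are not compared.

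The samples had the profile of skeletal muscle. Of 8 skeletal fibre markers, the 6 with a probe (Acta1, Ckm, Des, Mb, Cacna1s and Eno3) were well above background in 16 of 16 samples. Of these Acta1, skeletal actin, fell at 24 h by 0.44 (SE 0.09, adjusted p = 0.0222, higher on 0 of 4 arrays), a call lost under 7 of 21 alternatives: the processed signals, the authors' deposited value table, any 1 array of 24 h left out, and median centring of the ratios in place of loess, which follows the ratio along signal intensity. The cardiac markers Nppa, Nppb, Myl7, Tnni3 and Mybpc3 were not well above background in any sample, but Tnnt2, cardiac troponin T, was in 15 of 16 samples and Ryr2, the cardiac ryanodine receptor, in 16. Smooth muscle markers were detected too: Acta2 and Smtn were well above background in 16 of 16 samples and Myh11 in 15, but Cnn1 in 0. Of the satellite cell and myoblast markers, Pax7 was not well above background in any sample, whereas Myf5 and Myod1 were in 16 of 16 and Cdh15 in 13. The array of 8 h replicate 1 had the widest ratios, with an SD of 0.44 for the log2 ratios over all kept probes, against 0.18 to 0.30 on the other 7 arrays. The array of 8 h replicate 2 was the least like the others of its time. Its Pearson r with replicates 1, 3 and 4 was 0.27, -0.12 and -0.04, against 0.30 to 0.37 among those replicates. Over 12061 tested probes, 6.91% passed an adjusted p of 0.05 at 24 h (4.15% higher, 2.76% lower), 0.0249% at 8 h (0.0166% higher, 0.00829% lower) and 1.26% in the comparison of the times (0.73% higher, 0.531% lower). Each time lay on 1 slide and 1 scan of its own, so a difference between the times cannot be told apart from one between slides.

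Myh1, the IIx heavy chain, was the only 1 of the 4 measured members past the threshold. At 24 h its level in testosterone samples was above that of the control on the same array on 4 of 4 arrays, and at 8 h it was below it on 4 of 4 arrays, by amounts that ranged from very little to several-fold. Levels are log2 signals, normalized across arrays, and can be compared between samples for 1 probe only. Levels and ratios of single arrays still hold the difference between the dyes, which the model fits as a dye term. For Myh1 this term was 0.39, which raises the ratio where testosterone RNA was in Cy5. It lowers the ratio by as much where testosterone RNA was in Cy3. In bulk RNA, fewer fibres of a type and less RNA per fibre cannot be told apart.

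At 24 h the Myh1 level was 11.55, 11.48, 11.54 and 10.33 in testosterone samples of replicates 1 to 4, against 10.19, 9.88, 9.99 and 9.54 in their controls. Every testosterone sample of 24 h was above every control sample of 24 h, and the treated sample of replicate 4 stood below the other 3. The log2 ratios on these arrays were 1.36, 1.60, 1.55 and 0.79. The fitted log2 ratio was 1.33 (SE 0.28, SD 0.37 over 4 arrays, 95% interval 0.71 to 1.95), a level 2.51-fold higher with testosterone (limma, adjusted p = 0.0217). Myh1 was thus 1 of 4 measured members past the threshold, where 6.91% of all tested probes passed (4.15% higher), and 4 probes are too few to set against that share. The call was lost without any 1 of the 4 arrays of 24 h, with log2 ratios of 1.08 to 1.47 and adjusted p-values of 0.0711 to 0.114. Leaving out 1 of these arrays also lowered the count over all tested probes, from 833 to between 208 and 417. With 24 h fitted alone, on its 4 arrays, Myh1 had an adjusted p of 0.000194 (limma).

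At 8 h the Myh1 level was 9.70, 9.44, 9.72 and 10.05 in testosterone samples of replicates 1 to 4, against 12.38, 11.11, 11.55 and 10.07 in their controls. The treated samples lay close together and the controls were spread over more than 2 log2 units. Replicate 4 was nearly equal in both channels, but its testosterone RNA was in Cy5, where the dye term raises the ratio. The log2 ratios were -2.68, -1.68, -1.84 and -0.02. The fitted value was -1.55 (SE 0.28, SD 1.11, 95% interval -2.17 to -0.93) and did not pass (limma, adjusted p = 0.153). This SE comes from 1 spread shared by both times. The SD, with the dye term still in the ratios, was 1.11 at 8 h and 0.37 at 24 h. The interval may therefore be too narrow for 8 h. With 8 h fitted alone the adjusted p was 0.41 (limma). None of the 4 measured members passed at 8 h, where 0.0249% of all tested probes did and 2037 of 12061 had an unadjusted p below 0.05. Without 8 h replicate 2 the value was -1.66 (limma, adjusted p = 0.0182), but there 1293 of 12058 tested probes passed. Without replicate 4 the value was -2.01 (limma, adjusted p = 0.0417), and of all tested probes only that of Myh1 passed. Without replicate 1, the array with the widest ratios, the value was -1.26 (limma, adjusted p = 0.5), and 0 of 12060 tested probes passed.

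The response of Myh1 differed between the times. The log2 ratio at 24 h less that at 8 h was 2.88 (SE 0.39, 95% interval 2.002 to 3.76; limma, adjusted p = 0.00983), and Myh1 was the only 1 of the 4 measured members past this threshold, where 1.26% of all probes passed. It was the largest such difference, by size, among the 12061 probes tested. The Myh1 ratio was also rank 10 from the top at 24 h and the lowest of all probes at 8 h. Without 8 h replicate 1 the difference was 2.58 with an adjusted p of 0.014, and without each other array in turn the adjusted p ran from 0.0028 to 0.0443. Under median centring the difference was 2.86 with an adjusted p of 0.237. The SE and interval of the difference also rest on the spread shared by both times.

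**Figure D2:**
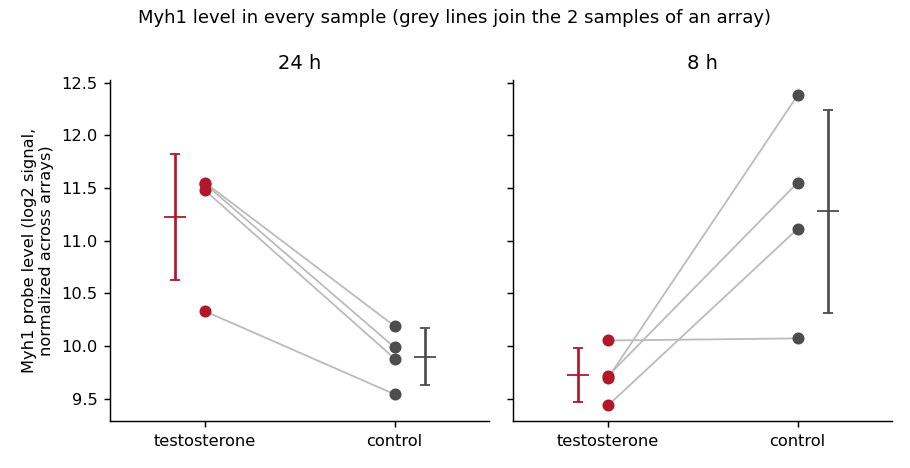
Myh1 probe level (log2 signal normalized across arrays) in testosterone samples (red) and control samples (grey) at 24 h and 8 h; each point is 1 sample, grey lines join the samples of 1 array, and bars give the mean ± SD (n = 4). Testosterone samples are above their controls at 24 h and at or below them at 8 h, and both kinds of sample have different means at the 2 times.

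In both channels the mean Myh1 level differed between the times, in opposite directions. Each time lay on its own slide, so a shift of a channel cannot be told apart from a slide difference. Testosterone samples averaged 11.22 ± 0.60 at 24 h and 9.73 ± 0.25 at 8 h (SD, n = 4 each), with no overlap between the times. Control samples averaged 9.90 ± 0.27 at 24 h and 11.28 ± 0.96 at 8 h (SD, n = 4 each), and the lowest control of 8 h fell within the range of the 24 h controls. The difference between the times was 1.499 for testosterone samples (exact two-sided permutation test, p = 0.0286, the smallest that 4 against 4 can give) and -1.38 for control samples (exact permutation test, p = 0.0571). Over the 8 such tests for the 4 measured members, both had an adjusted p of 0.229. These tests were chosen after the values were seen.

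**Figure D3:**
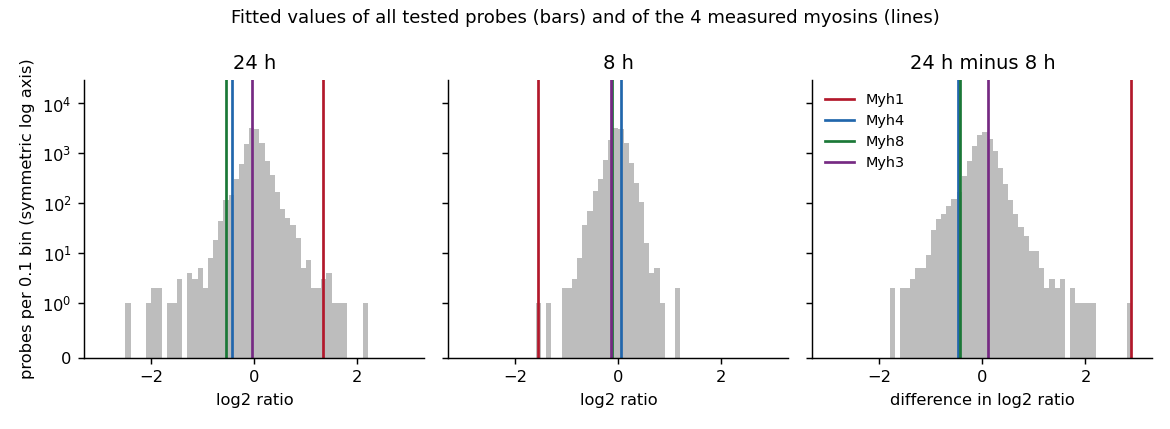
Number of tested probes (y axis, symmetric log scale, bins of 0.1) by fitted log2 ratio of testosterone over control at 24 h and at 8 h, and by the difference between them; vertical lines mark Myh1, Myh4, Myh8 and Myh3. Myh1 lies near the upper end at 24 h (1.33), at the lower end at 8 h (-1.55) and at the upper end of the differences (2.88), while the other 3 lie between -0.56 and 0.10; the Myh8 values hold a saturated channel.

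Markers of other cell types were set beside Myh1. Of 4 fibroblast markers, all measured, the collagens Col1a1 (1.54, adjusted p = 0.00207) and Col3a1 (1.48, adjusted p = 0.00378) rose at 24 h, while Pdgfra, the receptor that marks fibroblasts, stood at -0.03 and Dcn, a matrix proteoglycan, at -0.00. The second kept probe of Col1a1 stood lower, at 0.92. The summed signal of the list was 3531 to 5745 in testosterone samples of 24 h, against 1836 to 2328 in their controls, and 1791 to 2272 in testosterone samples of 8 h, against 1720 to 3201 in their controls. Col1a1 and Col3a1 also differed between the times, by 2.10 and 2.08 (adjusted p = 0.00828 and 0.0125), and both differences were lost under median centring (adjusted p = 0.237 and 0.307). Like Myh1, both collagens were above control on 4 of 4 arrays at 24 h. At 8 h the log2 ratios of replicates 1 to 4 were -1.54, -0.97, 0.02 and 0.25 for Col1a1 and -1.34, -0.95, 0.19 and -0.30 for Col3a1. Set beside the 8 h ratios of Myh1, -2.68, -1.68, -1.84 and -0.02, all 3 genes were well below 0 in replicates 1 and 2, and only Myh1 was in replicate 3.

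Of 5 macrophage markers, all measured, C1qa (0.69, adjusted p = 0.00104) and Cd163 (0.50, adjusted p = 0.0142) rose at 24 h and 3 did not pass; the Cd163 call was lost without 24 h replicate 1, 3 or 4. Both also differed between the times, C1qa by 0.77 (adjusted p = 0.0119) and Cd163 by 0.85 (adjusted p = 0.0182), differences lost under 5 and 6 of 20 alternatives. The summed macrophage signal was 783 to 990.1 in testosterone samples of 24 h, against 634 to 721 in their controls, and 659 to 850.3 in testosterone samples of 8 h, against 667 to 1060 in their controls. The haemoglobin genes Hba-a1 and Hbb stood at 0.39 and 0.71 at 24 h, with second kept probes at 0.87 and 0.40. By their brightest probes Hba-a1 and Hbb did not pass at either time, and the third erythrocyte marker, Alas2, was not measured. Their summed signal was 8099 to 30876.5 in testosterone samples of 24 h, against 8787 to 10676.5 in their controls, and 8975 to 10369 in testosterone samples of 8 h, against 6865 to 41258 in their controls. The highest control sums of 8 h and treated sums of 24 h thus fell on the same sides as the Myh1 levels. Single arrays differed. At 8 h Hba-a1 was low in replicates 1 and 3 (-1.85 and -2.18) and at -0.34 in replicate 4. In replicate 2 it stood at 0.45 and Hbb at 0.39, against -1.68 for Myh1. The highest treated haemoglobin sum of 24 h was that of replicate 3, with ratios of 1.58 for Hba-a1 and 2.09 for Hbb. The other arrays of 24 h had 0.09, 0.22 and -0.35 for Hba-a1 and 0.33, -0.04 and 0.46 for Hbb. The part of these cell types in the Myh1 result was not tested.

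Myh4, the IIb chain of the fastest fibres, did not pass at either time. At 24 h its level was 13.13, 12.85, 11.93 and 12.53 in testosterone samples, against 13.01, 13.24, 13.16 and 12.72 in their controls. Testosterone samples and controls overlapped, and replicate 3 had the lowest treated sample. The fitted log2 ratio was -0.42 (SE 0.23, SD 0.57, 95% interval -0.93 to 0.09; limma, adjusted p = 0.323), and under median centring it stood at 0.03.

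At 8 h the Myh4 level was 13.11, 13.29, 12.23 and 13.10 in testosterone samples, against 12.88, 12.64, 12.93 and 13.04 in their controls. In all, 3 of the 4 treated samples were above their controls and replicate 3 was below it. The fitted value was 0.06 (SE 0.23, SD 0.56, 95% interval -0.45 to 0.57, adjusted p = 0.912). The difference between the times was -0.48 (SE 0.32, 95% interval -1.20 to 0.24, adjusted p = 0.496).

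Myh8, the perinatal chain, was too bright for the scanner in one dye, so its direction was not measured as for the other members. Its red (Cy5) signal was saturated on 8 of 8 arrays, between 65148 and the scanner maximum of 65535, and every Myh8 ratio therefore holds 1 clipped channel. The green (Cy3) signals were not saturated. At 24 h they were 21724 and 23597 in testosterone samples of replicates 3 and 4, against 17636 and 29415 in control samples of replicates 1 and 2. At 8 h they were 41389 and 21001 in testosterone samples of replicates 1 and 2, against 17928 and 11581 in control samples of replicates 3 and 4. These raw green values come from different arrays and overlap at 24 h. With saturated spots left out no Myh8 ratio remained. Myh1 and Myh4 were saturated in 0 of 16 samples.

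At 24 h the Myh8 level computed from these signals was 14.96, 15.07, 14.58 and 14.94 in testosterone samples, against 15.05, 15.64, 15.64 and 15.45 in their controls. The clipped channel was that of the testosterone sample on replicates 1 and 2, with log2 ratios of -0.09 and -0.57. There clipping lowers the ratio before normalization by an unknown amount. The control was clipped on replicates 3 and 4, with ratios of -1.06 and -0.51, and there clipping raises the ratio before normalization. Saturated spots stayed in the loess fit, so the direction of the error left after normalization was not determined. On replicate 1 the processed signals gave 0.19. The fitted value of -0.56 (SE 0.19, SD 0.40; limma, adjusted p = 0.11) averages these clipped values, and no direction is read from it.

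At 8 h the Myh8 level was 14.996, 15.57, 15.09 and 14.81 in testosterone samples, against 15.77, 15.11, 15.44 and 14.62 in their controls. Here the control was clipped on replicates 1 and 2 and the testosterone sample on replicates 3 and 4, and the log2 ratios of -0.77, 0.46, -0.34 and 0.19 lay on both sides of 0. The fitted value was -0.12 (SE 0.19, SD 0.55, adjusted p = 0.774) and the difference between the times -0.44 (SE 0.26, adjusted p = 0.444), with the same limit.

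**Figure D4:**
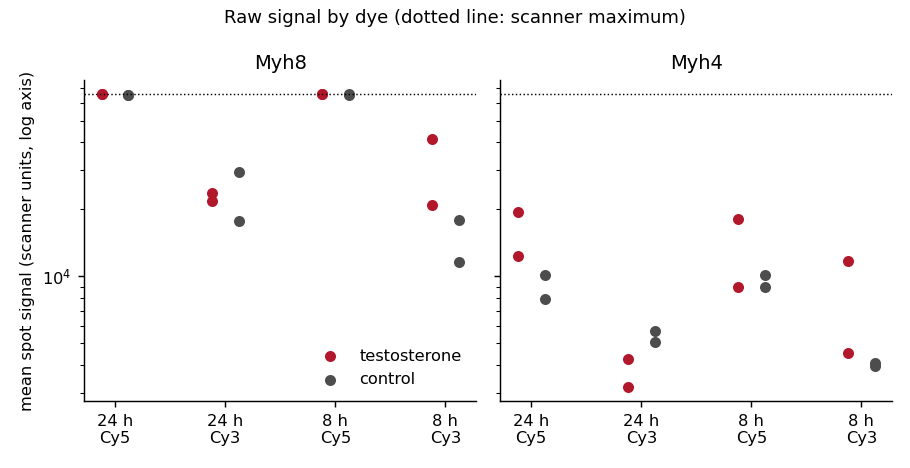
Mean spot signal in scanner units (y axis, logarithmic) of the Myh8 and Myh4 probes by time and dye, with testosterone samples in red left of control samples in grey and 2 samples of each per column; the dotted line is the scanner maximum of 65535. All 8 Myh8 samples labelled with Cy5 lie at the line, and all Myh4 samples lie below it.

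Myh3, the embryonic chain, did not pass at either time. At 24 h the kept probe stood at 6.72, 6.23, 6.13 and 6.17 in testosterone samples, against 6.35, 6.46, 6.42 and 6.20 in their controls. The groups overlapped, and the treated sample of replicate 1 was the highest. The fitted log2 ratio was -0.05 (SE 0.10, SD 0.30, 95% interval -0.27 to 0.18; limma, adjusted p = 0.853).

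At 8 h the Myh3 level was 6.20, 6.13, 6.32 and 6.37 in testosterone samples, against 6.45, 6.57, 6.38 and 6.21 in their controls, which again overlapped. The fitted value was -0.15 (SE 0.10, SD 0.26, 95% interval -0.38 to 0.08, adjusted p = 0.45). These levels lay within 1 log2 unit of the lowest signals called well above background, 5.77 to 6.10 over the samples, so a change of a dim transcript would be compressed here.

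**Figure D5:**
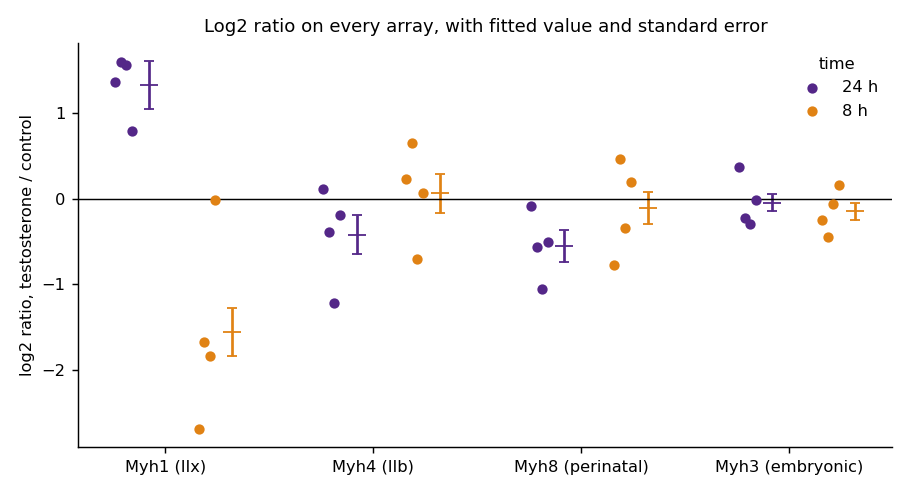
Log2 ratio of testosterone over control (y axis) of the 4 measured myosin heavy chains at 24 h (purple) and 8 h (orange); points are the 4 arrays and bars the fitted value ± SE. The Myh1 arrays lie at or above 0.79 at 24 h and at or below -0.02 at 8 h, and those of Myh4, Myh8 and Myh3 lie between -1.22 and 0.65; every Myh8 point holds a saturated channel.

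Transcripts of other fast fibre proteins were set beside Myh1. Of 13 fast fibre partners, all measured, 2 fell at 24 h, 0 rose and 11 did not pass, where 2.76% of all tested probes fell. Their median log2 ratio was -0.37, against 0.00 over all tested probes; under median centring the list stood at 0.08, against 0.15 over all probes. Mylk2, the kinase of the regulatory light chain, fell by 0.83 (SE 0.09, adjusted p = 0.000879), and its second kept probe stood at -0.52. Actn3, the Z-disc actinin of fast fibres, fell by 0.55 (SE 0.14, adjusted p = 0.0403) with 6 of 16 samples saturated. The Mylk2 call was lost under median centring alone of 21 alternatives, and that of Actn3 under 11 of 20, among them the processed signals, median centring, no dye term and any 1 array of 24 h left out. The fast light chains Myl1 and Mylpf stood at -0.27 and -0.40 and the fast troponins Tnnt3, Tnni2 and Tnnc2 at -0.37, -0.38 and -0.21, and none of these passed. Saturated samples numbered 7 for Mylpf, 7 for Tnni2, 3 for Tnnc2, 7 for Atp2a1 and 1 for Pvalb, so their ratios and the list median hold clipped values. With saturated spots left out 9 of the 13 genes remained, 1 of them fell and the median was -0.27. Across the alternatives 0 to 7 of the list fell and 0 rose, and without 8 h replicate 1 the count that fell was 5. At 8 h and between the times 0 of 13 passed.

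Slow fibre partners were often dim, like Myh7. Of 11 slow fibre genes 6 were measured, and 0 of them passed at 24 h, at 8 h or between the times, with a median of 0.10 at 24 h. Over the alternatives that median ran from -0.28, with the strict filter that left 3 of these genes, to 0.46 with the processed signals. The number past the threshold at 24 h was at most 1 higher, and at most 2 lower, that count with each time fitted alone. Mybpc1, slow myosin binding protein C, stood at -0.38 (limma, adjusted p = 0.0995, higher on 1 of 4 arrays) and Tnnc1, the slow troponin C, at -0.28 (adjusted p = 0.153, higher on 0 of 4 arrays). Tpm3, slow tropomyosin, stood at 0.22 (limma, adjusted p = 0.0666, higher on 4 of 4 arrays) but was well above background in only 5 of 16 samples. Myl2, the slow regulatory light chain, Tnni1, the slow troponin I, Myoz2 and Ankrd2 were not well above background in any of 16 samples, and Myl3, the slow essential light chain, was so in 5. Atp2a2, the slow calcium pump, was well above background in 16 of 16 samples and stood at 0.22 at 24 h (adjusted p = 0.14).

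Of 9 developmental and cardiac partners 4 were measured, and 1 of them rose. Mybph, myosin binding protein H of the thick filament, rose by 1.23 at 24 h (SE 0.11, adjusted p = 0.000265) and stood at 0.27 at 8 h (adjusted p = 0.281). It differed between the times by 0.96 (adjusted p = 0.0206), a call that was lost under 8 of 20 alternatives: the processed signals, the authors' deposited value table, median centring, no dye term, and without 24 h replicate 1, 3 or 4 or 8 h replicate 4. Myl4, the embryonic and atrial light chain, stood at 0.05 and Actc1, cardiac actin, at -0.11 at 24 h, and neither passed.

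Among proteins that fold, anchor or degrade myosin, 9 of 12 had a probe and all 9 were measured, with 1 lower at 24 h, 0 higher and a median of 0.02. Trim63, the ubiquitin ligase MuRF1 that acts on myosin heavy chains, fell by 0.68 (SE 0.14, adjusted p = 0.0202), which did not pass without 24 h replicate 1, 3 or 4 or under median centring. Unc45b, the muscle chaperone of myosin heads, stood at -0.38 (adjusted p = 0.0811), Smyd1 at 0.01 and the M-band proteins Myom1 and Myom2 at 0.16 and 0.13. Among 7 other myosin heavy chains 4 were measured and 0 passed at 24 h, at 8 h or between the times. Myh13, the chain of extraocular muscle, which neighbours Myh8 on chromosome 10, was well above background in 16 of 16 samples and stood at -0.19 at 24 h (adjusted p = 0.418).

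Of 19 fibre type regulators 18 had a probe and 12 were measured. Myog, which drives myoblast differentiation, rose at 24 h by 0.37 (SE 0.09, adjusted p = 0.0398) and Mef2d, a factor that acts with it, fell by 0.37 (SE 0.09, adjusted p = 0.0446). The other 10 did not pass, among them Eya1 at -0.09, which promotes fast fibre genes in mice, and Sox6 at -0.01, which represses slow fibre genes in mice. At 8 h and between the times 0 of 12 passed. The Myog call was lost under 7 of 20 alternatives and the Mef2d call under 12 of 21, both of them without any 1 array of 24 h, without 8 h replicate 3 or 4 and under median centring.

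Likeness between the measured members was described over the 8 arrays. The log2 ratios of Myh1, taken less their fitted dye term, had a Pearson r of -0.43 with those of Myh4 and 0.25 with those of Myh3. None is given for Myh8, because every one of its ratios holds a clipped channel. The 3 named genes with ratios most like those of Myh1, among 8419 probes with a symbol, were Pnp, a purine phosphorylase (r = 0.99), Lrg1, a secreted glycoprotein (r = 0.99), and Crispld2, a secreted protein (r = 0.97). Pnp stood at a log2 ratio of 0.78 at 24 h and -0.05 at 8 h, Lrg1 at 0.37 and -0.21, and Crispld2 at 0.94 and 0.42. Those nearest to Myh4 were Esf1 (0.97), Tsc22d3 (0.97) and Gadd45a (0.96). Nearest to Myh3 were Cp (0.96), Prr5 (0.96) and Scfd1 (0.95). All of these share the same 8 hybridisations and are descriptions.

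The promoters of the neighbours Myh1 and Myh4 are shown because their transcripts were both well measured and gave different ratios. Each RefSeq sequence (build GRCr8) runs from 250 bases before to 50 after the start that the RefSeq promoter table uses. Capitals mark the stretch of 20 bases that is identical in Myh1, Myh2 and Myh4.
Myh1 promoter: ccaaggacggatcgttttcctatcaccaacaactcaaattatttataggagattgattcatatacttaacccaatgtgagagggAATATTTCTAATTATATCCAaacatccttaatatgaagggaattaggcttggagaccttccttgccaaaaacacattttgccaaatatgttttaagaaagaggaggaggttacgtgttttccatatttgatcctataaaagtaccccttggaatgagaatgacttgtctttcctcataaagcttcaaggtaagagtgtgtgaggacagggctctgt
Myh4 promoter: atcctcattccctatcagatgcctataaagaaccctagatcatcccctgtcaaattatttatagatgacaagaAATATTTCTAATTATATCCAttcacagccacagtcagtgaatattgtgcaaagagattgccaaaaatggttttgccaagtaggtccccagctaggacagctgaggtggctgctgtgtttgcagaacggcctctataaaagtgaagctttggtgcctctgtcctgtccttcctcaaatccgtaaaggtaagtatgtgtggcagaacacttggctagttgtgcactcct
They lie on GRCr8 at chr10:52384662-52384961 and chr10:52421898-52422197, both on the plus strand. The stretch begins at base 85 of the Myh1 window, 81 of the Myh2 window and 74 of the Myh4 window, counted from 1 at the window's 5′ end. The start used for the window is the first base of the gene in the RefSeq gene table for Myh2 and Myh4, but lies 102 bases after it for Myh1, so the Myh1 window covers other ground relative to the gene. It was the only stretch of 10 or more bases found in all 3 of these promoters, and it occurs in 5 of 33469 rat promoters searched on both strands (0.0149%), those of Myh1, Myh2, Myh4 and LOC102555216. The Myh3, Myh6, Myh7 and Myh8 windows do not hold these letters.

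Searched on both strands, TATAAA occurred at 2 positions in the Myh1 window, 3 in Myh4, 1 in Myh2 and 1 in Myh3, and 14.2% of all promoters hold it. The E-box letters CANNTG, read by myogenic factors, occurred 3 times in Myh4 and were not found in the Myh1 or Myh2 window, and 72.1% of all promoters hold them. The letters AGAACA, a half-site of steroid receptors, occurred once in Myh4 and were not found in the other 6 windows, and 20.7% of all promoters hold them. These matches are descriptions of letters in the windows only.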

How the data were processed

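Per the labels' protocols, Trizol RNA was labelled with a Quick Amp kit. The submitters' processing notes name Agilent Feature Extraction 9.5.3.1. The deposited mean signals and local backgrounds are unnormalized linear intensities per the file headers, whereas the deposited processed signals are intensities that had lowess dye normalization. Ratios of red over green in log10 units are also deposited, per the file headers, and were not used. The authors' deposited value table holds log2 ratios; it matched the processed signals turned to testosterone over control, with column medians from -0.144 to 0.0896.

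Mean signals were corrected with normexp (offset 50) and normalized by loess within arrays with limma 3.58.1 under R 4.3.3. Control spots and outlier-flagged spots were left out and saturated spots kept. Levels were further scaled between arrays by Aquantile. Of 30367 probes 12074 were kept and 12061 could be tested. Gene names came from the array files and, through accessions, from a GRCr8 table (18377 probes by accession, 2484 by symbol, 9506 unnamed); all 9 member probes matched both. One model held each time's log2 ratio and a dye term per probe and used all 8 arrays (lmFit, eBayes), with Benjamini-Hochberg adjustment over all tested probes and a threshold of 0.05. The procedure was tested on simulated data. The number of arrays limits the precision. Exact permutation tests were run in scipy 1.17.1.

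The members, gene lists and tests were chosen with earlier results of these data known. Named were all member probes, every list gene past the threshold, at most 4 per list and comparison, a few list genes that did not pass, chosen for their role after the values were seen, and the 3 genes most like each measured member but Myh8, whose ratios hold a saturated channel. Where a gene had several kept probes, the brightest was used. Alternatives covered the signal used, background correction, centring, dye term, filters, saturated spots, weights, single times, left-out arrays and a replicate block. Partner list counts under the alternatives were added after seeing the data.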

Additional observations from a re-analysis of the deposited data

Results flagged for a closer look

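The log2 ratio of Myh1 differed between the times: the value at 24 h less that at 8 h was 2.88, with a test of the difference itself (limma, adjusted p = 0.00983). With the dye term still in the ratios, all 4 arrays of 24 h were above 0 and all 4 arrays of 8 h below it, one at -0.02.

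The treated Myh1 level of 24 h replicate 4, at 10.33, lay far from those of the other 3 arrays, which were between 11.48 and 11.55. Of 24 sets of 4 values examined this way it was the only one with such a sample, and chance gives about 1 in 20. Without that array the log2 ratio of Myh1 at 24 h was 1.38 with an adjusted p of 0.0711. The dye term was not removed from the levels compared here.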

How the results depend on the processing

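Myh1 kept its sign in all 21 alternatives at each time and in all 20 between the times, with log2 ratios of 1.08 to 1.75 at 24 h, -2.01 to -1.12 at 8 h and differences of 2.58 to 3.34. Its 24 h call was lost only without each array of 24 h, and its call between the times only under median centring (adjusted p = 0.237). Member probes past the threshold at 24 h numbered 2, Myh1 and Myh8, with each time fitted alone and with array weights, though every Myh8 ratio holds a clipped channel, and 0 to 2 with one array left out. At 8 h they numbered 0 to 1 with one array left out, and between the times 0 under median centring and 1 with any array left out.

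Over all probes, 833 passed at 24 h, against 436 under median centring (417 higher, 19 lower), 1702 with each time alone, 1632 with array weights and 208 to 1320 with one array left out. Higher calls made up 60.02% of calls with loess and 95.6% with median centring, which moved the median of all probes at 24 h to 0.15 and at 8 h to 0.12. At 8 h, 3 passed, against 0 under median centring, 0 with that time alone, 1 without the dye term and 0 to 1293 with one array left out, the highest without 8 h replicate 2. Between the times 152 passed, against 83 with the processed signals, 83 with the authors' deposited value table, 0 under median centring, 306 with array weights and 33 to 617 with one array left out, again highest without 8 h replicate 2.

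Values that changed sign had not passed before or after. Myh4 stood at 0.028 at 24 h under median centring; at 8 h it stood at -0.23 with array weights and ran from -0.16 to 0.34 with one array left out, below 0 without 8 h replicate 2. Myh8 at 8 h stood at 0.070 with the processed signals and with the authors' deposited value table and at 0.44 under median centring, and ran from -0.40 to 0.095 with one array left out, above 0 without 8 h replicate 1 or 3, all from ratios with a clipped channel. Myh3 at 24 h stood at 0.0031 without background correction and at 0.055 under median centring, and ran from -0.15 to 0.089 with one array left out, above 0 without 24 h replicate 2. The cause was not tested.

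Both times use replicate numbers 1 to 4. Same-numbered arrays deviated together with correlations of -0.26, 0.17, -0.17 and -0.07. After the dye term was removed they were 0.28, 0.19, 0.29 and 0.33, but the fitted dye term makes the contrast of replicates 1 and 2 with replicates 3 and 4 equal at both times by construction. Replicate 1 less 2, and replicate 3 less 4, correlated between the times at 0.02 and 0.02. The numbers therefore give no pairing. With a replicate block, 921 probes passed at 24 h, 8 at 8 h and 341 between the times, and Myh1 had adjusted p-values of 0.0266, 0.162 and 0.0176. Slide as a block could not be fitted, since each time lay on 1 slide. No value came for Myh8 with saturated spots left out, for Myh3 under the strict filter or for the difference with each time fitted alone. Signal over background limits Myh2, Myh3, Myh6 and Myh7, and saturation limits Myh8.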
